A study of Arabidopsis thaliana with 11 samples.

Results

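Among the Arabidopsis genes that the array's annotation knows only by a locus code, 45 gave a lower signal in expanding leaves than in both the stem and the flowers. Each was chosen from the deposited signals of 11 Affymetrix ATH1 arrays, on which a gene is read by a set of short probes. Signals under 100 were first set to 100. A probe set was taken when it was paired with a single gene whose symbol is its bare locus code, and when the lowest of its 8 stem and flower signals was at least 2 times the highest of its 3 leaf signals. This picked 45 of 11933 such probe sets (0.377%), for 45 different loci. Of the 11933, 3756 had a signal of at least 200 in all 8 stem and flower arrays, the least a selected probe set could have, and the 45 were 1.20% of those.

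All plants were Columbia-0 wild type and no group carried a transgene or a treatment. The leaf group (n = 3) held expanding leaves taken 15 days after germination. The stem group (n = 4) held the growing top 2 inches of the stem, freed of siliques and pedicels, and the flower group (n = 4) held open flowers together with closed buds, both taken at 29 days. Plants were kept at a day temperature of 25 °C and a night temperature of 20 °C, either in a growth chamber (leaf replicate 1, stem replicates 1 and 2, flower replicates 1 and 2) or in a greenhouse kept near those settings (leaf replicates 2 and 3, stem replicate 3, flower replicates 3 and 4). Stem replicate 4 is given a greenhouse code in its title and a growth chamber in its protocol. The labels also give each array a factor to bring its signal of GapC, a glycolytic gene, to 8500. The signal times this factor was 8051 and 8974 for stem replicates 2 and 3 and 9936 and 7271 for flower replicates 2 and 3. It was 8500 or 8501 on every other array. Taken with the factor stated for the other of replicates 2 and 3 of its organ, each of these signals gives 8500. Factors and values of replicates 2 and 3 are thus crossed in both stem and flower, and their sites are uncertain. The labels do not show whether the values or only the factors were exchanged, and this was not tested. Leaf RNA was extracted with Trizol alone, whereas stem and flower RNA was also passed over a silica column, so organ, age and RNA preparation cannot be told apart in any difference from leaf. These are bulk samples, in which fewer cells of a type and less RNA per cell cannot be told apart. Nothing in the sample descriptions states that replicates are separate plants, so every p-value measures the spread between these samples, which may be technical.

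The stem and the flowers are parts of the inflorescence, the shoot that an Arabidopsis plant forms after it stops making rosette leaves. Both grow out from the inflorescence meristem and its flower primordia, while a rosette leaf is mainly a photosynthetic organ. Transcripts low in leaf and present in both other organs can therefore belong to many kinds of cells, and a locus code carries no function. In the gene table of assembly TAIR10.1 all 45 loci were found, and all 45 were again listed under the bare code. One of them, AT4G33150, carries the synonym LKR/SDH, lysine-ketoglutarate reductase/saccharopine dehydrogenase, the bifunctional enzyme that begins the breakdown of lysine. The other loci had no functional name in the tables used here and are described by their signals alone. Promoter and protein sequences were not used here.

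The organ labels were checked against markers of each organ. All 5 flower markers tested (ATA27, AT5G07230, AMS, EMS1 and PLIM2a, genes of the anther and pollen) were higher on every flower array than on any other, as were all 3 secondary wall markers (IRX15, IRX15-L and GUT2) on the stem arrays. Of 4 photosynthesis markers all 4 had their highest mean in leaf, and 2 were higher on every leaf array than on any other. The median signal per array was 192.1 to 251.2. Stem replicate 3 stood apart in its control transcripts, with a 3'/5' signal ratio of 12.24 for actin and 13.05 for GAPDH, a measure that rises when the 5' ends of transcripts are missing. Flower replicate 3, one of the 2 flower arrays labelled greenhouse, came next with 8.23 and 5.45. Over the remaining arrays the actin ratio lay between 1.83 and 4.49 and the GAPDH ratio between 1.94 and 3.86.

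**Figure D1:**
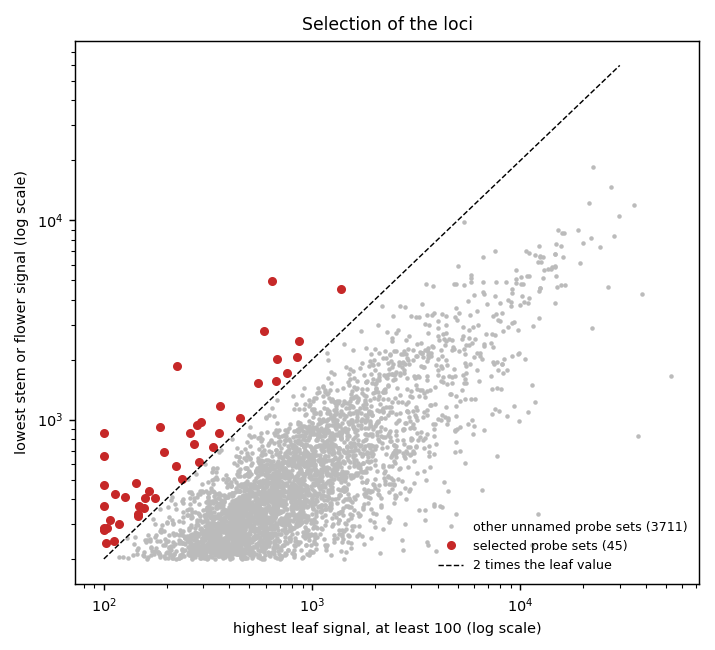
Highest leaf signal (x axis, signals under 100 set to 100) against lowest stem or flower signal (y axis) for the 3756 unnamed probe sets at 200 or more in all 8 stem and flower arrays, both on log scales in arbitrary signal units. Red points are the 45 selected probe sets, and the dashed line marks 2 times the leaf signal.

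The values that chose the loci are given here as a description. The choice was relative to leaf, and the mean leaf signals of the 45 ran from 9.3 to 1224.3. The ratio of the lowest stem or flower signal to the highest leaf signal ran from 2.12 to 8.61, with a median of 2.79. It was at least 3 for 17 loci and at least 4 for 7. Just inside the threshold lay AT4G17670 (2.18), AT1G02660 (2.14) and AT1G21830 (2.12), and just outside it lay AT1G03590 (1.98), AT1G07870 (1.98) and AT5G41060 (1.97). Leaf replicate 1, the growth chamber leaf, held the highest of the 3 leaf signals for 23 of the 45 loci (51.1%) and for 41.2% of the 3756 probe sets. Without that array 86 probe sets met the rule, among them all 45. Leaving out any other single array gave 45 to 59.

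The number of loci also depended on how the arrays were scaled. The deposited signals have a 2% trimmed mean of 500 on every array. The labels name a further scaling to GapC, a glycolytic gene, whose deposited signal was 10659 to 14103 in leaf, 7506 to 9116 in stem and 6316 to 9475 in flower. With every array set to a GapC signal of 8500, 125 unnamed probe sets met the rule and all 45 were among them. Quantile normalisation gave 42, of which 41 were shared, and scaling to a common median gave 39, all shared. Under all 4 scalings 39 of the 45 met the rule. The 6 that did not were AT5G19120, AT3G59845, AT3G19550, AT5G03610, AT1G02660 and AT1G21830.

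**Figure D2:**
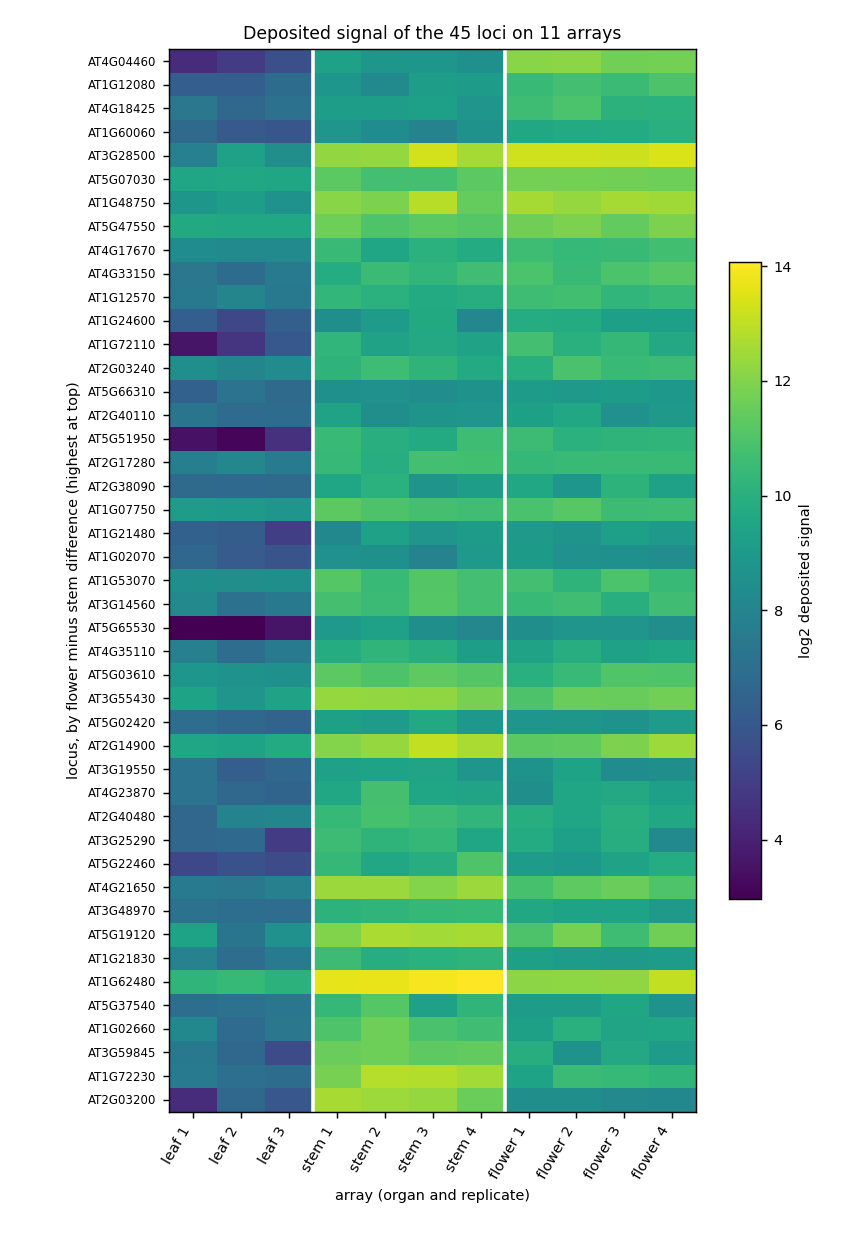
Deposited signal (colour, log2) of the 45 loci (rows) on the 11 arrays (columns), ordered by the fitted difference between flower and stem. The 3 leaf columns are the darkest part of every row, and the rows at the top and the bottom differ between the 4 stem and the 4 flower columns.

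For 7 loci every leaf signal was under 100, the level to which the rule raised lower signals. AT5G51950 had the largest ratio of the 45, at least 8.61 times. Its signal was 11.3, 8.9 and 23.5 in leaf, 1380.5, 1008, 861 and 1559.7 in stem and 1514, 1066, 1155 and 1201 in flower. Stem and flower overlapped fully, and no leaf array came near them. AT1G72110 (at least 6.55 times) had 11.9, 25.9 and 65.4 in leaf, 1254, 665, 816 and 655 in stem and 1730.4, 1033, 1306 and 818 in flower, again with overlap between the last 2 organs. In AT5G22460 (at least 4.71 times) the leaf signals were 42, 54.8 and 46.8, the stem signals 1335, 781, 933 and 2061 and the flower signals 546, 471, 665 and 922. Here 3 of the 4 flower arrays lay below the lowest stem array, and its difference of -0.94 from stem to flower was called in 6 of 25 other settings.

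The other 4 of these loci had smaller ratios. AT5G65530 read 7.8, 7.9 and 12.1 in leaf, 279 to 647 in stem and 356 to 432 in flower. AT1G24600 read 41.5 to 80 in leaf, 285 to 832 in stem and 598 to 931 in flower, and AT1G21480 read 32.1 to 85.2, 282 to 638 and 420.4 to 605. AT4G04460, whose leaf signals were 20.5, 30.3 and 50.6, is described with the loci higher in flower. Because leaf signals under 100 were counted as 100, the ratios of these 7 loci are lower bounds. Another 11 loci had 1 or 2 leaf signals under 100, and for the remaining 27 all 3 leaf signals were above it.

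Among the loci with all 3 leaf signals above 100, AT4G21650 had the widest gap, 8.27 times. It read 192, 171 and 225 in leaf, 5432, 5495, 4172 and 5365 in stem and 1856, 2555, 2935 and 2078 in flower, so the 3 organs did not overlap and every stem array lay above every flower array. AT3G28500 (7.76 times) read 226, 640.2 and 351 in leaf, 4966, 5109, 10182 and 6039 in stem and 9804, 10009.5, 9592 and 11054 in flower. Its stem replicate 3, the array with the high 3'/5' ratios, reached the flower level, while the other 3 stem arrays stayed below every flower array. AT4G33150, the lysine breakdown enzyme LKR/SDH, read 163, 119.8 and 185 in leaf, 921, 1503, 1256 and 1629 in stem and 1947, 1462, 1940.3 and 2328 in flower. Its lowest stem or flower array was 4.97 times the highest leaf array, and stem and flower overlapped.

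AT1G48750 (4.77 times) read 455, 585 and 413 in leaf, 4329, 3786, 7659.7 and 2789 in stem and 6066, 5158, 6085 and 5776 in flower, with stem replicate 3 again the highest stem array. AT2G38090 (3.73 times) had close leaf signals of 114, 108 and 112, against 721, 1080.1, 423 and 588 in stem and 794, 441, 1142 and 648 in flower. The stem and flower arrays of this locus were spread over the same range. Whether the RNA quality of stem replicate 3 played a part in its values was not tested. Without stem replicate 3 the selection rule was met by 51 probe sets, including the 45.

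**Figure D3:**
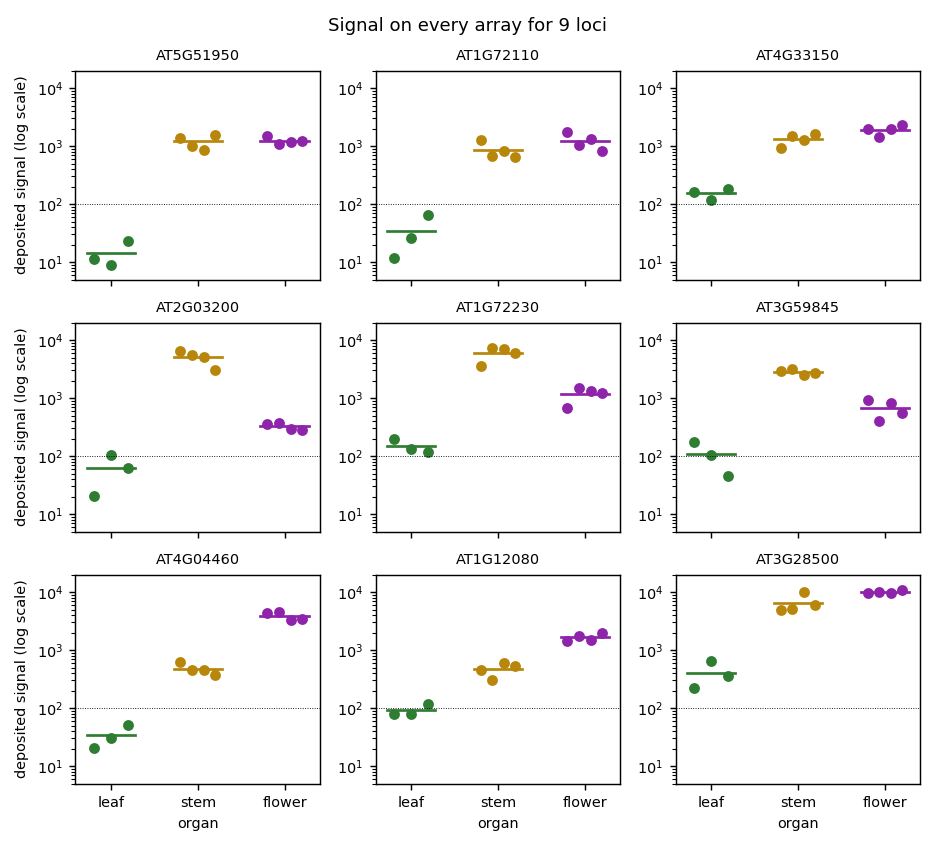
Deposited signal (log scale, arbitrary units) of 9 loci on every array, with leaf in green (3 points), stem in gold (4) and flower in purple (4). Horizontal bars are organ means, and the dotted line is the signal of 100 below which leaf values were set to 100. The top row shows loci whose stem and flower arrays overlap, the middle row loci higher in stem, and the bottom row loci with higher means in flower.

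The difference between stem and flower was not part of the rule, but the rule used the same stem and flower signals. It kept only loci whose weaker organ was still above leaf, a condition that the 3756 comparison probe sets below did not have to meet. The difference was tested with limma on log2(quantile-normalised intensity + 32) over all 17526 probe sets with enough signal, among them all 45. A locus was called at an adjusted p under 0.05 with a difference of at least 1 log2 unit, a doubling on that scale. Of the 45 loci, 4 were higher and 8 lower in flower than in stem. Together these were 26.7% of the loci, against 18.0% of all probe sets tested and 11.7% of the 3756 unnamed ones with strong enough stem and flower signals. The loci higher in flower were 8.89% of the 45, beside 9.86% of all probe sets and 5.70% of the 3756. Those lower in flower were 17.8%, beside 8.10% and 6.02%. These shares were compared without a test. The median difference of the 45 was -0.17, and that of all probe sets -0.03. In absolute size the median was 0.67 log2 units for the 45 and 0.45 for all probe sets. Scaling to a common median moved the counts to 2 higher and 15 lower (11.8% of the calls being higher, against 33.3%). That scaling shifted the median of all probe sets to -0.16 and called 7.66% of them higher and 11.8% lower, so that the share of all calls that were higher went from 54.9% to 39.4%. GapC scaling gave 4 higher and 9 lower among the 45, with 66.0% of the calls over all probe sets higher.

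**Figure D4:**
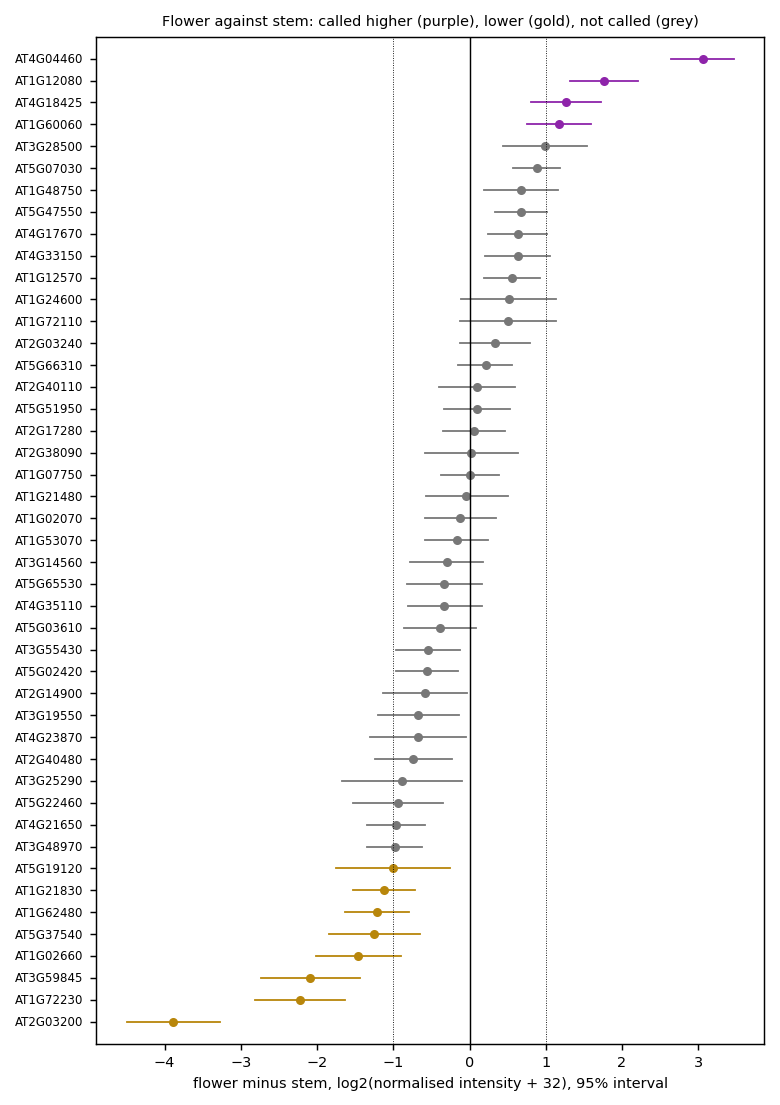
Fitted flower minus stem difference (x axis, log2 scale) of the 45 loci with 95% confidence intervals from limma. Purple loci were called higher in flower (4), gold loci lower (8), and grey loci were not called (33). Dotted lines mark 1 log2 unit.

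The largest difference of the 45 was a loss of signal from stem to flower at AT2G03200. It read 6362, 5600.4, 5104 and 3073 in stem, 364, 365, 289 and 284 in flower and 20.8, 103 and 63.3 in leaf. Every stem array was far above every flower array, and every flower array was above every leaf array. The log2 difference was -3.89 ± 0.28 (SE, n = 4 each, adjusted p = 2.2e-07), and it was -4.07 in the growth chamber and -4.02 in the greenhouse. Here and for the loci that follow, the growth chamber value sets 2 flower arrays against 2 stem arrays, while the greenhouse value sets 2 flower arrays against a single stem array, replicate 3, the one with the high 3'/5' ratios. Stem replicate 4 is in neither, so the greenhouse values are given as values and not as tests. Sites follow the labels, which are uncertain for stem and flower replicates 2 and 3. AT1G72230 read 3550.5, 7367, 7021 and 5881 in stem, 688, 1481, 1342 and 1219 in flower and 194, 131 and 117 in leaf. The 3 organs formed separate steps, with a flower minus stem difference of -2.22 ± 0.27 (SE, adjusted p = 3.0e-05).

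AT3G59845 followed the same order, with 2937, 3169, 2534 and 2710.0 in stem, 944, 402, 818 and 550.0 in flower and 175, 102 and 44.8 in leaf. Its stem arrays were close together, its leaf arrays were not, and the difference was -2.09 ± 0.30 (SE, adjusted p = 1.1e-04). AT1G02660 read 2086, 3137, 1872 and 1608 in stem, 612, 1042, 704 and 712 in flower and 287, 114 and 167 in leaf, with leaf replicate 1 the highest leaf array. All of its stem arrays were above all of its flower arrays (log2 -1.46 ± 0.26 SE, adjusted p = 6.1e-04). These 4 loci kept their call under each of the 25 other settings and left-out arrays tried.

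AT1G62480 read 1191, 1379 and 1103 in leaf, 13074, 13362, 15684 and 17268 in stem and 4539, 4606, 4812 and 8503 in flower. Flower replicate 4 stood well above the other flower arrays and still below every stem array. The difference was -1.21 ± 0.20 (SE, adjusted p = 3.2e-04), -1.3 in the growth chamber and -0.95 in the greenhouse. AT1G21830 read 1530.4, 949, 1055 and 1166 in stem, 614, 543, 502 and 539 in flower and 237, 121 and 195 in leaf, without overlap between any 2 organs (log2 -1.12 ± 0.19 SE, adjusted p = 4.5e-04). Without stem replicate 1 its difference was -0.99 and the call was lost.

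AT5G37540 read 1309.5, 2271, 638 and 1222 in stem, 536, 537, 712 and 406 in flower and 127, 137 and 158 in leaf, and its stem replicate 3 fell below flower replicate 3. Its difference of -1.25 ± 0.28 (SE, adjusted p = 0.00331) became -0.97 without stem replicate 2, which held the highest signal, and was -1.67 in the growth chamber and -0.43 in the greenhouse, where the single stem array was the lowest of the 4. It was the only one of the 12 called loci whose stem and flower arrays overlapped. AT5G19120 read 3986, 6433, 5892 and 6265 in stem, 2029, 3519.8, 1559 and 3261 in flower and 670.1, 158 and 378 in leaf, a wide spread within each organ. At -1.0 ± 0.35 (SE, adjusted p = 0.0377) it lay on the threshold, and 16 of 25 other settings lost the call.

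In flower, 4 loci were higher than in stem. AT4G04460 read 4382, 4472, 3336 and 3438 in flower, 633, 463, 447 and 369 in stem and 20.5, 30.3 and 50.6 in leaf, so the organs formed 3 separate steps with flower at the top. The log2 difference from stem was 3.06 ± 0.19 (SE, n = 4 each, adjusted p = 5.3e-08), and it was 3.08 in the growth chamber and 2.87 in the greenhouse. AT1G12080 read 1446, 1732, 1467 and 2012 in flower, 453, 299.8, 592 and 535 in stem and 77.6, 78.1 and 119 in leaf (log2 1.76 ± 0.21 SE, adjusted p = 2.0e-05). Both kept their call under all 25 other settings.

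AT4G18425 read 1578, 1950.2, 1091 and 1063 in flower, 564, 588, 605 and 438 in stem and 165, 105 and 143 in leaf. Its 2 growth chamber flower arrays were the higher ones, and the difference of 1.27 ± 0.21 (SE, adjusted p = 4.4e-04) was 1.57 in the growth chamber and 0.71 in the greenhouse, where the single stem array was the highest of the 4. AT1G60060 read 778, 878, 882 and 1051 in flower, 433, 326, 245 and 408 in stem and 112, 66.5 and 61.3 in leaf, with all flower arrays above all stem arrays (log2 1.18 ± 0.20 SE, adjusted p = 3.9e-04). With arrays scaled to a common median the differences of both fell under the threshold, to 0.96 for AT4G18425 and 0.97 for AT1G60060. The difference of AT1G60060 was 0.95 with the growth chamber arrays alone.

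Stem and flower arrays did not overlap in the deposited signals of 17 loci, 11 with stem above (24.4%) and 6 with flower above (13.3%). Over all probe sets tested stem was above in 12.8% and flower in 22.4% (35.2% in all), and over the 3756 unnamed ones in 15.6% and 19.4% (35.0% in all). The 17 loci were 37.8% of the 45. The 17 include 11 of the 12 called loci and 6 others. Of these 6, AT3G48970 read 1136, 1219, 1312 and 1366 in stem and 763, 690.0, 673 and 482 in flower, and its difference of -0.98 ± 0.16 (SE, adjusted p = 3.9e-04) was just short of 1 log2 unit. AT4G21650, described above, had -0.96 ± 0.18 (SE, adjusted p = 9.2e-04) and was called in 8 of 25 other settings, among them GapC scaling at -1.09 and leaving out stem replicate 3 at -1.08. AT2G40480 was at -0.74, AT3G55430 at -0.54, AT5G07030 at 0.88 and AT5G66310 at 0.21.

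Without the minimum difference, 26 of the 45 loci had an adjusted p under 0.05 in the limma test, 11 higher and 15 lower in flower. Over all 17526 probe sets tested, 18.1% were higher and 17.4% lower on the same terms, and these shares were compared without a test. Besides the 12 called loci, 14 had an adjusted p under 0.05 and a difference under 1 log2 unit. In 7 of them stem was the higher organ: AT3G48970, AT4G21650, AT5G22460 (-0.94), AT2G40480, AT3G19550 (-0.67), AT5G02420 (-0.56) and AT3G55430. AT3G55430 read 682, 435 and 664 in leaf, 5174, 4944, 4873 and 3601 in stem and 2013, 2937, 2899 and 3329 in flower. AT2G40480 read 99.6, 241 and 269.8 in leaf, 1253 to 1810.4 in stem and 753 to 1008 in flower. The leaf arrays of AT5G02420 read 90.8 to 126 and those of AT3G19550 81 to 146, and stem and flower overlapped in both.

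In the other 7 flower was the higher organ: AT3G28500 (0.99), AT5G07030, AT1G48750 (0.67), AT5G47550 (0.67), AT4G17670 (0.63), AT4G33150 (0.63) and AT1G12570 (0.56). For AT3G28500 the difference was 1.20 and called without stem replicate 3. AT5G07030 read 716, 760.2 and 739.5 in leaf, 2454, 1707, 1751 and 2493 in stem and 3428, 3478, 3363 and 3139 in flower, with close arrays in leaf and flower and a wider spread in stem. AT5G47550 read 845, 801 and 793 in leaf, 2069 to 3185 in stem and 2741 to 3835 in flower. AT1G12570 read 173 to 259.7 in leaf, 859.7 to 1273 in stem and 1231 to 1665 in flower, and AT4G17670 read 306 to 333, 726 to 1432 and 1339 to 1668.

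For the remaining 19 loci the test found no difference between stem and flower at an adjusted p under 0.05. The 3 with differences closest to 0 among those with a median stem and flower signal of at least 1000 were AT1G07750, AT2G17280 and AT5G51950. AT1G07750 read 2484, 2009, 1796 and 1606 in stem, 1898, 2307, 1534 and 1574 in flower and 551, 497 and 436 in leaf, and the 95% interval of its difference was -0.37 to 0.38 log2 units. AT2G17280 read 1342, 940.4, 1754 and 1658, 1321, 1400.0, 1400.0 and 1417 and 208, 279 and 189.7 in the same order, with an interval of -0.35 to 0.47. AT5G51950, the locus with the widest gap to leaf, had an interval of -0.33 to 0.53. These intervals leave out a doubling in either direction.

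Intervals were wider elsewhere, so an equal level was not shown for all 19. AT3G25290 read 1529, 1182, 1319.7 and 713 in stem and 887, 602, 939.9 and 313 in flower, with replicate 4 the lowest array of both organs, and its interval was -1.67 to -0.10. AT2G14900 read 689 to 863 in leaf, 4173 to 8466 in stem and 2494 to 5558 in flower, with an interval of -1.13 to -0.03. AT4G23870 had 1 high stem array (787, 1792, 714 and 699 over stem replicates 1 to 4) and 367 to 817 in flower. AT1G24600 had an interval of -0.11 to 1.14, AT1G72110 of -0.12 to 1.14 and AT2G38090 of -0.59 to 0.63.

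The leaf signals of the other loci in this set lay below those of stem and flower on all 3 arrays, which the rule requires. AT1G53070 had close leaf arrays, with 358, 356 and 363 in leaf against 1384 to 2259.7 in stem and 1165 to 1923 in flower. AT5G03610 read 367 to 452 in leaf and 2000.5 to 2533 in stem, AT3G14560 142 to 292 and 1494 to 2271, and AT4G35110 122 to 222 and 586 to 1194. AT2G03240 read 269.8 to 358 in leaf and 994 to 1868 in flower, AT2G40110 115 to 156 and 388 to 774, AT1G02070 57.2 to 102 and 337 to 515, and AT5G66310 85.2 to 146 and 468 to 543. The differences between flower and stem of the 19 loci ran from -0.88 (AT3G25290) to 0.52 (AT1G24600).

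Growth site was not named in the rule either, but the rule used signals from arrays of both sites. It took the lowest stem or flower signal and the highest leaf signal. Loci with a large site difference within an organ could thus be left out. The site counts of the 45 are therefore not independent of the selection. With organ in the model and 10 arrays, limma called 0 of the 45 loci between greenhouse and growth chamber, as it did for 0% of all 17526 probe sets. At an unadjusted p under 0.05 there were 5 of the 45 (11.1%) and 1946 of all (11.1%). The largest site difference was 0.62 ± 0.17 log2 units, higher in the greenhouse, for AT2G14900 (adjusted p = 0.277). Its stem and flower arrays read 4173, 5114, 8466 and 6582 and 2494, 2662, 3759 and 5558 over replicates 1 to 4. Sites follow the labels, which are uncertain for some of these replicates. The site effect was also compared between flower and stem, and 0 of the 45 were called, against 0.359% of all probe sets (0.348% upward, 0.0114% downward) and 0.0266% of the 3756 unnamed ones. At an unadjusted p under 0.05 there were 6 of the 45 (13.3%) and 2241 of all (12.8%). The greenhouse stem was a single array in that fit, replicate 3, and was assumed to vary like the other groups.

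Leaf sites could not be compared within the group beyond single arrays, since 1 leaf array came from the growth chamber. That array was the highest leaf array for AT5G19120 (670.1, 158 and 378), AT1G02660 (287, 114 and 167) and AT3G59845 (175, 102 and 44.8), and the lowest for AT3G28500 (226, 640.2 and 351), AT2G40480 (99.6, 241 and 269.8) and AT2G03200 (20.8, 103 and 63.3).

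One of the 45 loci was read by a second probe set paired with it alone. For AT1G21830 that probe set read 964, 658 and 795 in leaf, 2656, 1581, 1150.1 and 2286 in stem and 1422, 1336, 989 and 1320.3 in flower. Every leaf array was again below every stem and flower array, but the ratio of the lowest stem or flower signal to the highest leaf signal was 1.03 and the second probe set did not meet the rule. Its fitted difference from leaf was 1.11 ± 0.25 (SE) log2 units in stem (adjusted p = 0.00322) and 0.65 ± 0.25 in flower (adjusted p = 0.0601), and the flower minus stem difference was -0.46 ± 0.23 (adjusted p = 0.135). The table of assembly TAIR10.1 lists AT1G21820 as another name of this locus, and the files do not show to which of the former loci each probe set was designed.

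**Figure D5:**
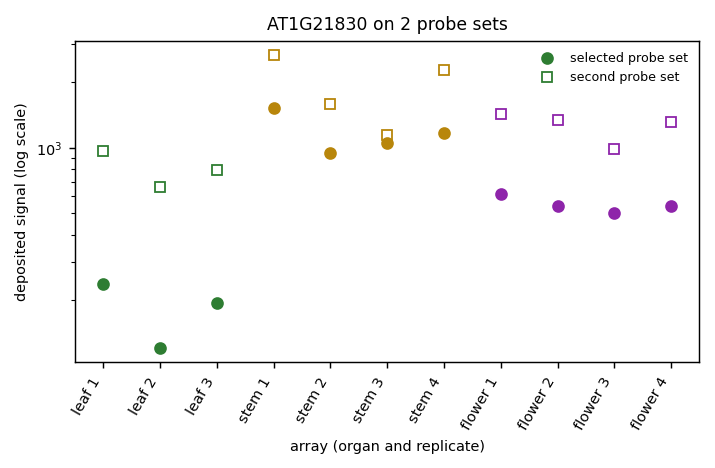
Deposited signal (log scale, arbitrary units) of the selected probe set (filled circles) and the second probe set (open squares) of AT1G21830 on the 11 arrays, coloured by organ. The leaf arrays are the lowest on both probe sets, and the step from leaf to flower is smaller on the second one.

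All 45 probe sets had the plain suffix that marks probes designed for 1 transcript. By their codes 14 loci lay on chromosome 1, 7 on each of chromosomes 2, 3 and 4, and 10 on chromosome 5, while 26.0%, 16.5%, 20.5%, 14.4% and 22.6% of all unnamed probe sets came from chromosomes 1 to 5. In the order of protein-coding genes in TAIR10.1, 2 pairs of the loci lay within 20 positions of each other. How many such pairs 45 loci drawn at random would give was not computed. AT2G03200 and AT2G03240 had 2 genes between them, and AT1G72110 and AT1G72230 had 14. In each pair 1 locus was called between flower and stem and the other was not, and the difference within a pair was not tested. AT2G03200 was the most stem-high locus, whereas AT2G03240 read 1179.5, 1601, 1165 and 857 in stem and 994, 1868, 1446 and 1550.1 in flower, a difference of 0.34 ± 0.21 (SE, adjusted p = 0.24).

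Of 1580 probe sets paired with 1 gene that does have a symbol, 14 (0.886%) met the same numeric rule. They include COR47, a dehydrin of the cold and drought response, EXLA2, an expansin-like protein, SHN3, a transcription factor of the cuticle, and rbcL, the plastid gene for the large rubisco subunit. The rbcL probe set read 161, 155.9 and 122.5 in leaf, 594 to 929 in stem and 421 to 805 in flower. Its leaf signals were below the median signal of each leaf array (194.9 to 200.9). Whether this probe set measures the rbcL level, or follows the RNA preparation that differed in leaf, was not tested. COR47 read 1631, 1205 and 1315 in leaf, at least 14450 in stem and 4488 to 7399 in flower. The 8 lists of known genes (wax and cutin, secondary wall, mitosis, cold and abscisic acid, meristem and inflorescence identity, floral organs, anther and pollen, leaf photosynthesis) checked against the rule held 130 genes, of which 26 had a probe set paired with them alone. COR47 was the only one of the 26 that met the rule, which 117 of all 22746 probe sets without controls met. The wax and cutin list had such a probe set for 1 of 26 genes, secondary wall for 3 of 22, mitosis for 2 of 19 and floral organs for 0 of 6. The rule could therefore hardly be checked for these themes. The mirror rules gave 30 unnamed probe sets low only in stem, 14 low only in flower and 101 high only in leaf, counts that rest on different numbers of arrays on the 2 sides and were not tested against each other.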

How the data were processed

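The deposited values are signal intensities of 11 Affymetrix ATH1 GeneChips, which the authors made with Microarray Suite 5.0 at a target intensity of 500, per the labels. On each array a 2% trimmed mean gave 500.0 or 500.1, so the GapC scaling named in the labels is not in the values. Probe-level files and detection calls were not used here, and the number of arrays limits the precision.

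The 64 control probe sets were left out, and the intensities were quantile normalised and taken as log2(value + 32). Probe sets with at least 100 in at least 3 arrays were tested two-sided in R 4.3.3 by limma 3.58.1, using lmFit and trended eBayes. Calls needed a Benjamini-Hochberg adjusted p under 0.05 over all 17526 probe sets and 1 log2 unit. Tissue contrasts used all 11 arrays, and site contrasts 10, without stem replicate 4. Differences are smaller than raw ratios for weak signals. The flower against stem fit was also run on simulated arrays with independent noise and changes planted in flower. Those arrays held no site effect and no shift in RNA quality, so they say nothing about either. The loci, lists and tests were chosen with earlier results of these data known. The rule for naming loci took the 8 with the largest ratio to leaf, up to 6 called in each direction between flower and stem, those called by site (none), 3 on each side of the threshold, the 6 with the highest stem and flower medians and the 3 with the smallest flower minus stem difference at a median of at least 1000. The other loci are given so that all 45 appear, and AT5G66310, AT3G48970 and further ones were picked after their values were seen. Gene symbols came from the platform table (1 gene for 13513 probe sets, several for 503, none for 8730) and TAIR10.1. Functional classes and promoter motifs had been planned and were not analysed here. Alternatives were other scalings, pseudocounts, signal minimums and fits, site and replicate terms, and leaving out each array.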

Additional observations from a re-analysis of the deposited data

Results flagged for a closer look

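Each of the 45 loci was examined in stem and in flower for an array whose gap to the next, divided by the range of the 4 arrays, was above Dixon's 95% critical value, a limit that chance passes in about 1 group of 20. Of the 90 groups 3 passed it. Stem replicate 3 was the lowest stem array for AT4G21650 at 4172.5, against 5365 to 5495 on the other 3, and its 3'/5' ratios for actin and GAPDH were high as well. Flower replicate 4 was the highest flower array for AT1G62480 at 8503, against 4539 to 4812. Stem replicate 2 was the highest stem array for AT4G23870 at 1792, against 699 to 787.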

How the results depend on the processing

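The count of 45 loci moved to 125 with GapC scaling, 136 with a ratio of at least 1.5, 17 with a ratio of at least 3, and 45 to 86 on leaving out 1 array, the highest without leaf replicate 1. For flower against stem the 4 higher and 8 lower loci became 11 and 15 with no minimum fold (18.1% and 17.4% of all probe sets) and 2 and 15 with arrays scaled to a common median (7.66% and 11.8% of all). Leaving out 1 array gave 4 to 5 higher and 7 to 10 lower. With the replicate number as a block there were 4 higher and 7 lower, the lost one being AT5G19120. All 8 stem and flower arrays correlated best with the array of their own number in the other organ, but the 4 correlations of deviations were 0.089 to 0.150 and the labels give no pairing. No called difference changed sign under any of them. The 2 site comparisons called 0 of the 45 loci under every alternative run, although over all probe sets 14 were lower in the greenhouse without leaf replicate 1. Both rest on the labelled sites, which are uncertain for stem and flower replicates 2 and 3. The counts among the 45 also follow a selection that used arrays of both sites. Over all probe sets the site effect differed between flower and stem for 61 upward and 2 downward, and for 224 and 0 with GapC scaling, 136 and 10 with a pseudocount of 1, 20 and 0 with a pseudocount of 100, 17 and 1 with no filter, 0 without a trend, and 0 to 62 upward on leaving out 1 array (0 without stem replicate 1 or 2, and 5 to 10 without leaf replicate 2 or 3 or any flower array). That comparison could not be fitted without stem replicate 3, the single greenhouse stem array. Leaf signals all under 100 limit the size of the gap to a lower bound for 7 loci.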
